A study of Saccharomyces cerevisiae with 71 samples.

Results

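The tRNAs that carry proline were represented by 2 of the 41 probes of a tRNA microarray for Saccharomyces cerevisiae, Pro-5 and Pro-6, which were taken by name as every probe beginning with Pro. The array measures charging, the fraction of a tRNA that carries its amino acid. Total RNA is divided into a portion treated with periodate, which destroys the 3' end of uncharged tRNA, and an untreated portion that gives total tRNA, and both are labelled with different fluorophores and hybridized together. The pair was selected on measured values of Pro-5, namely its charging in the gcn2Δ strain after 60 min without Trp and in wild type after 15 min without His, and its abundance in the first of these conditions. These values are given below as descriptions with no test.

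The tested strain was gcn2Δ, in which GCN2 was replaced by URA3, and it was set against the isogenic wild-type strain. Both are MATα prototrophs of 1 lineage with LEU2 and TRP1 restored, so that each can make every amino acid. Cultures in logarithmic growth in synthetic complete medium were moved to medium lacking Trp (-Trp), the 3 aromatic amino acids Trp, Phe and Tyr (-Trp/Phe/Tyr), Arg (-Arg), Arg with ornithine added (-Arg +ornithine), His (-His) or Leu (-Leu). Samples were taken at 15 and 60 min, and in the Leu experiment at 5, 45 and 120 min, which gave 13 gcn2Δ and 13 wild-type depleted cultures on 46 arrays, out of 71 arrays in the series. Each of the 6 media had 1 culture per strain and time point, so no condition had a replicate culture. The sources do not say whether the time points of 1 strain and medium came from separate flasks. A culture here therefore stands for 1 strain, medium and time, and the time points may not be independent. A pair of arrays with exchanged dyes, available for 20 cultures, carries the same RNA and was counted as 1 replicate, and the other 6 cultures had 1 array. No medium lacked proline.

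The reference cultures were labelled as the start of depletion, except in the Leu experiment. There they carried the time of the first Leu sample and no depletion label, so Leu values have a different baseline. A value is the charged over total ratio of a depleted culture divided by that of the reference culture from its own experiment, with strain and dyes matched. It is given on the log2 scale relative to the median probe of the array and is called the charging change, so that a negative value stands for charging that is lower than in the reference, relative to the median tRNA. The reference cultures have 22 charging arrays whose probes were all set to 1, so they carry no error, and proline charging in complete medium could not be compared between the strains. The 4 Trp arrays on which Cy5 labelled the total tRNA of depleted cultures were turned, because they likely hold the inverse ratio, which the labels do not state. As deposited, the tryptophan tRNA probe Trp-3 lay below 1 with Cy3 and above 1 with Cy5 in every Trp culture. Its ratios were 0.0709 and 14.4 in gcn2Δ cells after 60 min. The 15-min pairs were 0.525 and 2.14 for gcn2Δ, 0.507 and 1.90 for wild type. A mean with unturned arrays thus combines opposite Trp-3 readings of 1 RNA. The direction of the 6 Leu arrays with total tRNA in Cy5 is not settled, and they were used as deposited.

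Proline is a cyclic amino acid that yeast makes from glutamate through the enzymes Pro1, Pro2 and Pro3, and it can also be formed from arginine and ornithine by way of the last of these enzymes. A single cytoplasmic prolyl-tRNA synthetase attaches it to isoacceptor tRNAs, which accept the same amino acid but differ in anticodon. In yeast the proline anticodons are IGG and UGG, which between them read the codons that begin with CC. Uncharged tRNA binds and activates Gcn2p, the kinase that phosphorylates eIF2α and through the transcription factor Gcn4p raises the expression of amino acid biosynthetic genes, so the gcn2Δ strain lacks this response. The files do not say which of Pro-5 and Pro-6 detects which anticodon, and the probe names are used here.

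Over the depleted cultures proline charging was centred near the median tRNA, with a wider spread than that of the median probe. Pro-5 ranged between -1.78 and 1.27 over the 26 cultures, with a median of -0.13 and an SD of 0.537, the 6th largest of the 41 probes. Pro-6 ranged between -0.81 and 0.72, with a median of -0.05 and an SD of 0.328, the 11th largest. The median SD over all probes was 0.183. The extremes of Pro-5 are the values that the choice of probes used, and without both of those cultures the SD was 0.333 for Pro-5, the 10th largest, and 0.323 for Pro-6, the 11th. Without them Pro-5 had the 14th and Pro-6 the 13th largest SD within the gcn2Δ cultures, and the 2nd and the 4th within the wild-type cultures. Pro-5 lay below the median tRNA in 17 cultures and above it in 9, and Pro-6 below it in 16 and above it in 10.

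**Figure D1:**
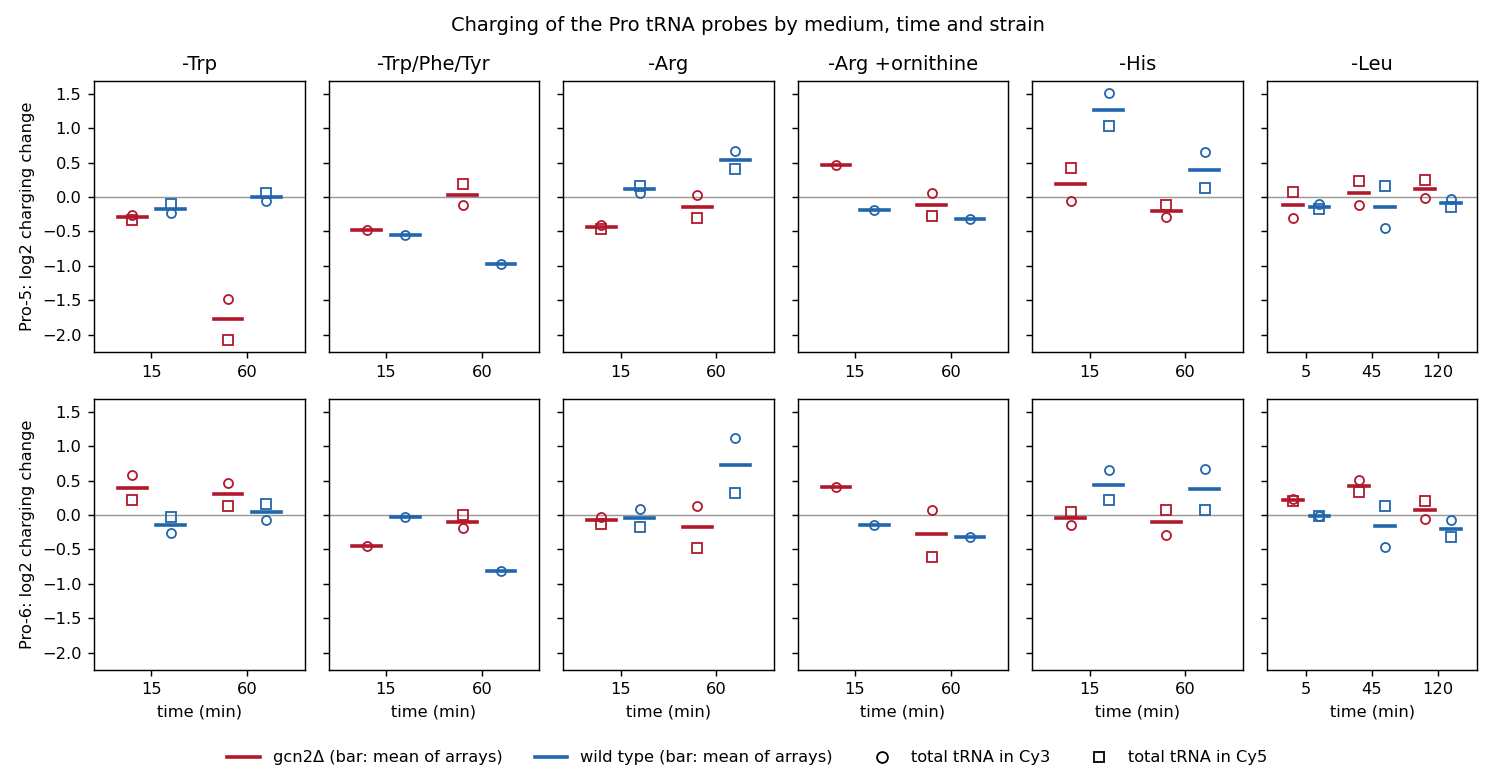
Charging change (log2, relative to the median probe of the array) of Pro-5 (top) and Pro-6 (bottom) by time of depletion in each medium, with single arrays as open symbols and the mean of a culture as a bar, gcn2Δ left of wild type. Pro-5 in the gcn2Δ strain after 60 min without Trp lies at -1.78, while Pro-6 in the same culture lies at 0.30.

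The lowest proline value of the series was that of Pro-5 in gcn2Δ cells 60 min into Trp depletion. Its charging change there was -1.48 where Cy3 labelled the total tRNA and -2.07 where Cy5 did, against -0.06 and 0.06 in the wild-type strain, and further pairs of array values are given in this order of dyes. The means were -1.78 in the gcn2Δ strain and 0.00 in the wild-type strain, so charging in the gcn2Δ culture was 3.42-fold lower than in its reference if the Cy5 array is turned. As deposited, the arrays put Pro-5 on opposite sides of the reference, and their mean was 0.29. In the mean of the arrays only Trp-3, the probe of the tRNA whose amino acid had been removed, was lower, at -3.83, and on single arrays Pro-5 was the 3rd lowest with Cy3 and the 2nd lowest with Cy5. Pro-6 lay above the median tRNA in the same RNA, with 0.47 and 0.13 in the gcn2Δ strain, against -0.08 and 0.16 in the wild-type strain. Its gcn2Δ mean of 0.30 was the 39th from the lowest of 41, close to the top of the array.

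With the array turned, the separation of the isoacceptors in this culture was larger than the disagreement of its arrays. Pro-5 minus Pro-6 was -1.95 and -2.20 on the gcn2Δ arrays, and the mean of -2.08 means that Pro-6 kept a charging ratio 4.22 times that of Pro-5. This value rests on turning the Cy5 array, whose deposited ratio for Pro-5 was 4.20 while that on the Cy3 array was 0.356. After turning, the arrays of this culture correlated at 0.90 over the 41 probes, which is a correlation across tRNAs of 1 RNA sample and not across replicates. With that array as deposited the mean difference was 0.12. In 1 bulk culture, lower charging in every cell and uncharged tRNA in part of the cells cannot be told apart.

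A smaller separation of the same direction was present at 15 min in the gcn2Δ strain. There Pro-5 was at -0.26 and -0.33, against -0.24 and -0.11 in the wild-type strain. Pro-6 was at 0.58 and 0.22 in the gcn2Δ strain, against -0.27 and -0.02 in the wild-type strain, and its gcn2Δ mean of 0.40 was the highest of the 41 probes. The difference Pro-5 minus Pro-6 was -0.84 and -0.55 in the gcn2Δ strain at this time. These values too rest on the turned Cy5 array, and as deposited the gcn2Δ means were 0.03 for Pro-5 and 0.18 for Pro-6, then the 5th highest probe. Between 15 and 60 min Pro-5 in the gcn2Δ strain changed by a further -1.48 and Pro-6 by -0.10. In the wild-type strain the changes were 0.17 for Pro-5 and 0.19 for Pro-6. At 15 min neither proline probe passed the test described below in either strain, while 1 of 41 probes (2.44%) did in each.

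The lower charging of Pro-5 was not accompanied by less of this tRNA. Abundance was measured for 1 pair of gcn2Δ cultures, after 60 min without Trp over its reference, with the dyes exchanged. Whether these were the cultures of the charging arrays is not stated. The abundance ratio of Pro-5 was 1.22 and 1.35, a mean of 1.28 and the highest of the 41 probes, with an SD of 0.098 on the log2 scale between the arrays. Pro-6 had ratios of 1.12 and 1.18, a mean of 1.15 and the 4th highest, with an SD of 0.053. Both arrays put both proline tRNAs above the reference, and Pro-5 above Pro-6. Trp-3 had 0.792 and 0.832, the lowest mean of the array. The median SD between these arrays was 0.076 over all probes, and with 1 pair of cultures the abundance has no replicate check.

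**Figure D2:**
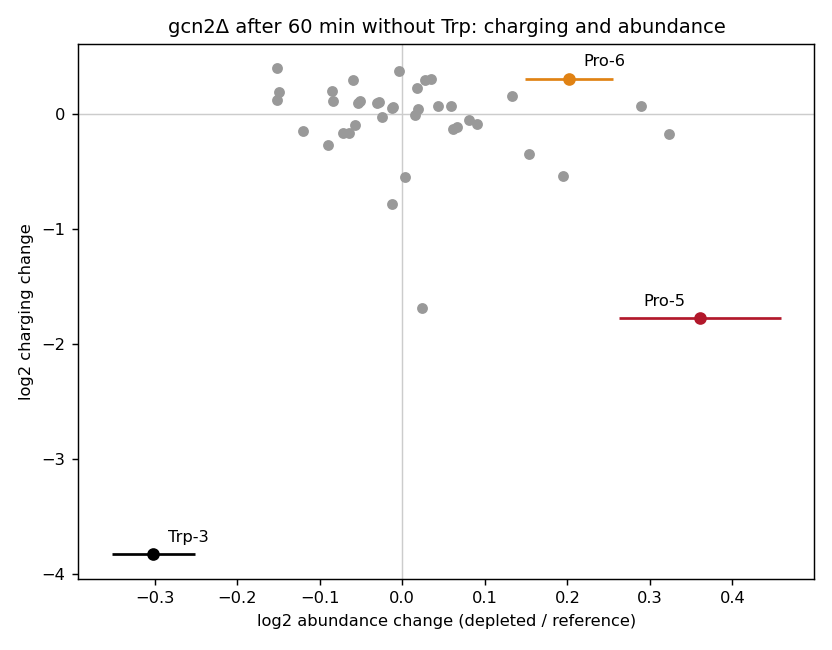
Charging change against abundance change (both log2) of the 41 probes in the gcn2Δ strain after 60 min without Trp, each relative to its reference culture, with bars for the SD between the abundance arrays of the probes named. Pro-5 lies at -1.78 for charging and 0.36 for abundance, Pro-6 at 0.30 and 0.20.

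Proline charging was next compared in the other depletions, where values that had no part in choosing the probes could be tested. Each culture was compared with 6, 8 or 10 cultures of media that kept the tested amino acids, using limma with Benjamini-Hochberg adjustment over the 41 probes. Of 46 such tests of Pro-5 and Pro-6 in 24 cultures, 0 were called at an adjusted p of 0.05 and 1 had an unadjusted p under 0.05, while over all probes 16 of 984 tests were called, or 1.63%. The 984 tests keep the Pro-5 values used to choose the probes, which the 46 leave out. The 16 calls include Pro-5 in the gcn2Δ strain after 60 min without Trp, which has no weight as a test. Adjusted p-values of the 46 tests ran between 0.146 and 1.00. An exact permutation test of 1 culture against 6, 8 or 10 cannot go below 0.143, 0.111 or 0.0909, so the call depends on limma's pooled spread.

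The removal of all 3 aromatic amino acids gave the lowest proline charging of the wild-type strain. At 60 min Pro-5 was at -0.11 and 0.18 on the gcn2Δ arrays, against -0.98 on the only wild-type array, where it was the lowest of the 41 probes and 1.97-fold below the reference. Pro-6 was at -0.19 and -0.00 on the gcn2Δ arrays, against -0.81 on the wild-type array, where it was the 3rd lowest and 1.76-fold below the reference. Both isoacceptors of the wild-type culture lay below all 6 comparison cultures, which spanned -0.32 to 0.53 for Pro-5 and -0.33 to 0.72 for Pro-6. The comparison cultures averaged 0.03 for Pro-5 (SE of the difference 0.34, limma adjusted p = 0.146) and 0.04 for Pro-6 (SE of the difference 0.40, limma adjusted p = 0.226). Neither passed the threshold, in a culture where 2 probes, or 4.88%, did. With only the wild-type cultures without His, without Arg and without Arg with ornithine for comparison, both passed. The share of the 41 probes that passed in that setting was not counted.

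At 15 min without Trp, Phe and Tyr each strain had 1 array, and Pro-5 was low in both. Pro-5 was at -0.48 in the gcn2Δ strain, against -0.55 in the wild-type strain, and both values were under the lowest of the 6 comparison cultures, -0.44. Pro-6 was at -0.45 in the gcn2Δ strain, against -0.04 in the wild-type strain. Pro-5 minus Pro-6 was thus -0.04 in the gcn2Δ culture, against -0.52 in the wild-type culture. From 15 to 60 min Pro-5 changed by 0.52 and Pro-6 by 0.35 in the gcn2Δ strain, against -0.43 and -0.78 in the wild-type strain.

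Removal of Arg, whose breakdown through ornithine can feed proline synthesis, gave lower proline values in the gcn2Δ strain than in the wild-type strain at 60 min, within a culture of each. At 15 min Pro-5 was at -0.41 and -0.47 in the gcn2Δ strain, against 0.06 and 0.16 in the wild-type strain. Pro-6 was at -0.03 and -0.12 in the gcn2Δ strain, against 0.08 and -0.18 in the wild-type strain. At 60 min Pro-5 was at 0.02 and -0.30 in the gcn2Δ strain, against 0.66 and 0.41 in the wild-type strain. Pro-6 was at 0.12 and -0.48 in the gcn2Δ strain, against 1.12 and 0.32 in the wild-type strain. In the wild-type culture they were the 2nd highest and the highest of the 41 probes, with mean ratios of 1.45 for Pro-5 and 1.65 for Pro-6, above all 6 comparison cultures. Neither passed the test (limma adjusted p = 0.978 for each), and in this culture 0 of 41 probes (0%) were called and 0 had an unadjusted p under 0.05. In the gcn2Δ culture at 60 min neither proline probe passed either, while 4 of 41 probes (9.76%) did. The Pro-6 arrays of the wild-type culture differed by 0.81, the widest dye pair of that probe.

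With ornithine added to the medium without Arg, the order of the strains at 15 min was the other way round. Pro-5 was at 0.47 in the gcn2Δ strain, against -0.19 in the wild-type strain, and Pro-6 was at 0.40 in the gcn2Δ strain, against -0.14 in the wild-type strain, each on 1 array. In the wild-type culture Pro-5 was the lowest of the 41 probes. By 60 min Pro-5 was at 0.06 and -0.28 in the gcn2Δ strain, against -0.32 on 1 wild-type array. Pro-6 was at 0.07 and -0.61 in the gcn2Δ strain, against -0.33 in the wild-type strain. Pro-5 and Pro-6 had thus changed by -0.58 and -0.67 between the time points in the gcn2Δ strain, against -0.13 and -0.18 in the wild-type strain. Neither proline probe passed the test in these cultures, with limma adjusted p between 0.782 and 0.997, while 3 of 41 probes (7.32%) did in the gcn2Δ strain at 60 min.

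Histidine depletion gave the highest Pro-5 value, which belonged to the wild-type culture at 15 min. Pro-5 was at -0.05 and 0.42 in the gcn2Δ strain, against 1.50 and 1.03 in the wild-type strain, whose mean of 1.27 corresponds to a charging ratio of 2.40. Pro-6 was at -0.14 and 0.05 in the gcn2Δ strain, against 0.66 and 0.21 in the wild-type strain. The wild-type Pro-6 mean of 0.43 lay above all 8 comparison cultures (highest 0.40) and did not pass the test (difference 0.45, SE 0.27, limma adjusted p = 0.475). Pro-5 minus Pro-6 was 0.85 and 0.81 on the wild-type arrays, the widest separation in the direction opposite to that of the gcn2Δ strain in Trp depletion. At 60 min the wild-type means were level, at 0.39 for Pro-5 and 0.37 for Pro-6. On single arrays Pro-5 was at -0.28 and -0.11 in the gcn2Δ strain, against 0.65 and 0.13 in the wild-type strain. Pro-6 was then at -0.28 and 0.08 in the gcn2Δ strain, against 0.67 and 0.08 in the wild-type strain. The change from 15 to 60 min in the wild-type strain was -0.87 for Pro-5 and -0.06 for Pro-6. Over the 41 probes, dye-swapped arrays at 15 min correlated at -0.28 for gcn2Δ and at 0.83 for wild type.

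In the Leu experiment, with the Cy5 arrays as deposited, Pro-5 stayed close to the median tRNA in every culture mean. It was at -0.12, 0.06 and 0.12 after 5, 45 and 120 min in the gcn2Δ strain, against -0.14, -0.14 and -0.09 in the wild-type strain. Pro-6 was at 0.22, 0.42 and 0.07 in the gcn2Δ strain, against -0.02, -0.16 and -0.20 in the wild-type strain. In the gcn2Δ strain Pro-6 was the highest of the 41 probes at both of the first time points, with 0.24 and 0.20 on the arrays at 5 min and 0.50 and 0.33 at 45 min. This rests on the Cy5 arrays as deposited, and with them turned the gcn2Δ means of Pro-6 were 0.02 at 5 min, the 15th highest, and 0.09 at 45 min, the 13th. The 45- and 120-min cultures, tested against 10 cultures at 60 min, gave limma adjusted p between 0.674 and 0.993, with 1 of 41 probes (2.44%) called in the gcn2Δ strain at 45 min, and the 5-min cultures had no comparison cultures. The comparison cultures of the Arg, His and Leu tests at 60 min included the gcn2Δ Trp culture, with Pro-5 at -1.78. Without it 0 calls were made as well. At 15 min those of the Trp, Trp/Phe/Tyr and both Arg tests included the wild-type His culture, with Pro-5 at 1.27. The SE of the Pro-5 difference was 0.54 or 0.60 in these tests, against 0.32 in the His tests at 15 min. Without the wild-type His culture 0 calls were made too.

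Pro-5 and Pro-6 lay close to each other in most wild-type cultures and in about as many gcn2Δ cultures as not. Their difference was within 0.2 in 7 of 13 gcn2Δ cultures and 11 of 13 wild-type cultures, and the charging changes had the same sign in 8 gcn2Δ and 11 wild-type cultures. A difference between the strains in these counts was not tested. The probes differed by more than 0.5 in 4 cultures: the gcn2Δ strain after 15 and 60 min without Trp, and the wild-type strain after 15 min without Trp, Phe and Tyr and after 15 min without His. On dye-swapped arrays the sign of the difference was repeated in 13 of 20 cultures, that of Pro-5 itself in 11 and that of Pro-6 in 12. Without the Trp and Leu experiments, whose Cy5 direction is turned or not settled, these counts were 5, 6 and 5 of 10. The median difference between swapped arrays was 0.275 for Pro-5 and 0.260 for Pro-6, against 0.185 for the median probe, and culture means nearer to 0 than this lie within the difference between swapped arrays.

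**Figure D3:**
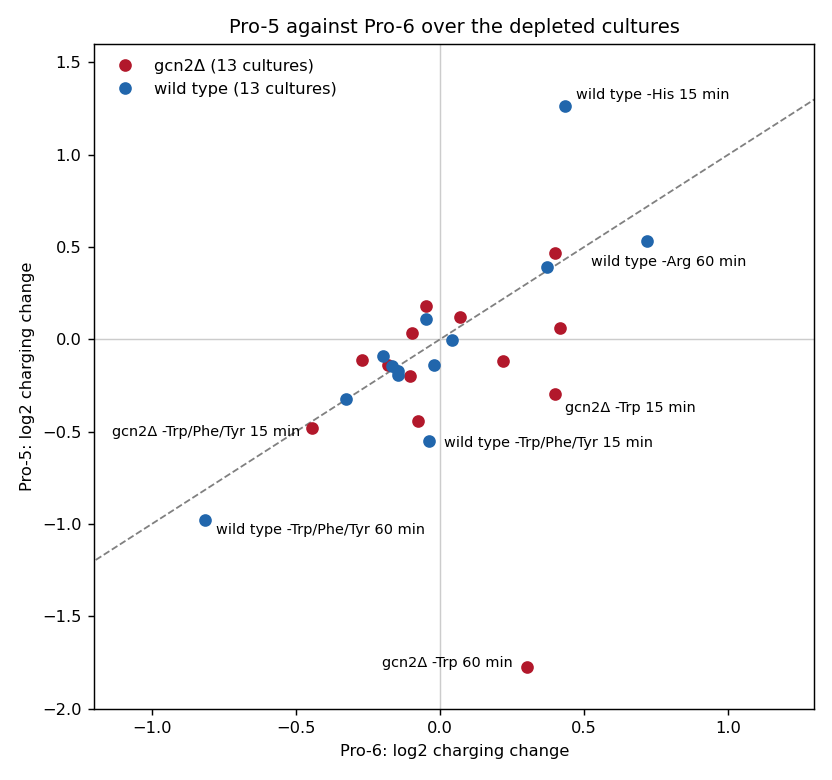
Charging change of Pro-5 (vertical) against Pro-6 (horizontal), both log2, in the 26 depleted cultures, with a dashed line where they are equal. Of the cultures, 18 lie within 0.2 of the line, and the gcn2Δ culture after 60 min without Trp lies 2.08 below it.

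Among the 32 pairs of probes for the same amino acid on the array, called isoacceptor pairs here whatever their anticodons, the proline pair was the 2nd most divergent. The SD of the difference between its probes over 26 cultures was 0.488, under 0.712 for Met-5 and Met-6, which are the initiator and elongator methionine tRNAs in an order that the files do not give. The median over the 32 pairs was 0.177. Without the gcn2Δ Trp culture at 60 min the SD of the proline pair was 0.288, the 5th largest, and without the Trp experiment it was 0.272, the 8th largest. The correlation of Pro-5 with Pro-6 was 0.45 (Spearman 0.54) over 26 cultures, the 17th highest of the 32 pairs, and 0.74 without that 1 culture, the 8th highest. All of these values include the wild-type culture after 15 min without His, where Pro-5 minus Pro-6 was 0.83. Its Pro-5 value was also used in the choice of probes. The cultures share references, array centring and media and may share flasks, and the correlations are descriptions.

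**Figure D4:**
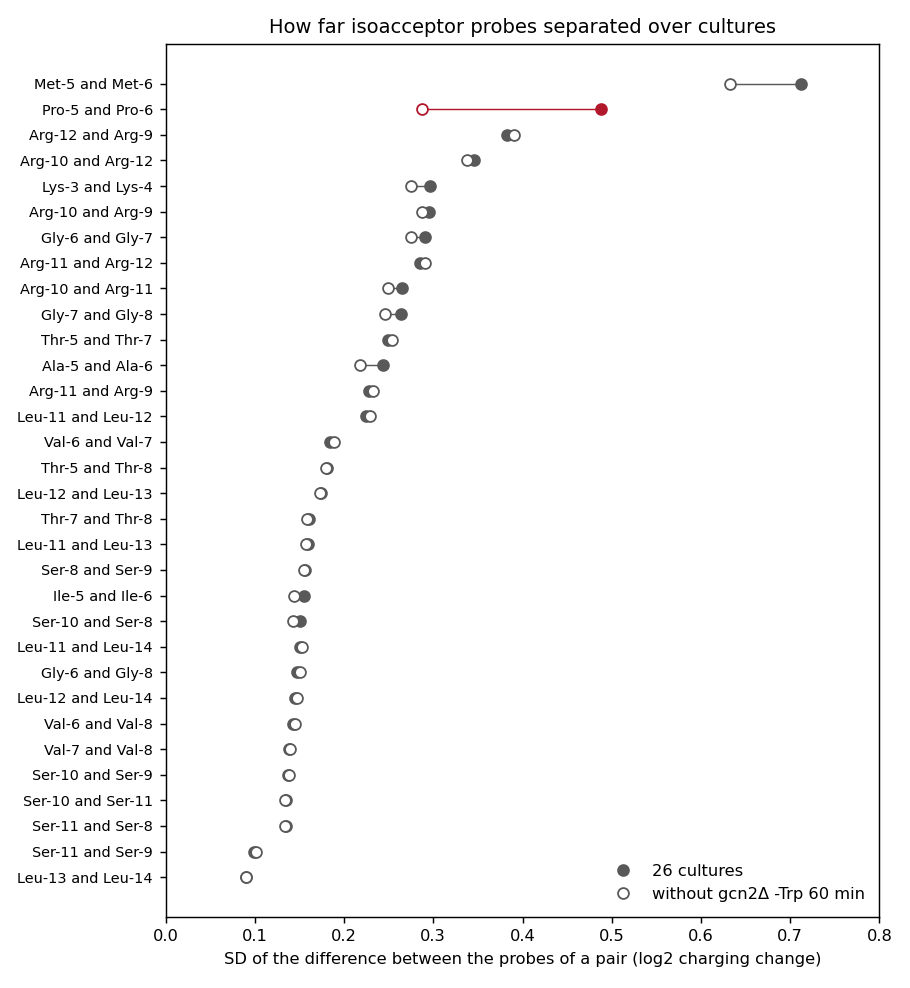
SD over cultures of the difference in charging change (log2) between the probes of each of 32 isoacceptor pairs, for all 26 cultures (filled) and without the gcn2Δ culture at 60 min without Trp (open). The proline pair lies at 0.488 with that culture and at 0.288 without it.

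The probe whose charging change was most like that of each proline probe was Tyr-3, the tyrosine tRNA. Over 26 cultures Pro-5 correlated with Tyr-3 at 0.68, with Ser-8 at 0.63 and with Trp-3 at 0.58, and Pro-6 was 6th, at 0.45. The correlation with Trp-3 rested on the 60-min gcn2Δ Trp culture, without which it was -0.00, whereas that with Tyr-3 was 0.79, that with Pro-6 was 0.74 and that with Ser-8 was 0.70. Pro-6 correlated with Tyr-3 at 0.68, with Asp-3 at 0.66 and with Asn-3 at 0.60, and Pro-5 was 10th. At the other end stood Val-7 (-0.60) and His-3 (-0.61) for Pro-5, and Met-5 (-0.69) and Leu-14 (-0.78) for Pro-6.

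Charging of the proline tRNAs was then compared between the strains over the experiments. At the late time points, 60 min for -Trp/Phe/Tyr, -Arg, -Arg +ornithine and -His and 45 min for -Leu, Pro-5 averaged -0.07 in the gcn2Δ strain and -0.10 in the wild-type strain, a difference of 0.03 (95% interval -0.61 to 0.68, n = 5 experiments, limma adjusted p = 0.988, exact sign permutation p = 1). Pro-6 averaged -0.05 in the gcn2Δ strain and -0.04 in the wild-type strain, a difference of -0.0041 (95% interval -0.65 to 0.64, limma adjusted p = 0.988, exact p = 1). Each was higher in the gcn2Δ strain in 3 experiments and lower in 2. No uniform strain difference was therefore detectable, and both intervals extend to -0.61 or lower and to 0.64 or higher. Of the 41 probes 0 were called, or 0%, and 0 had an unadjusted limma p under 0.05. The smallest exact p that 5 experiments allow is 0.0625.

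At 15 min, over -Trp, -Trp/Phe/Tyr, -Arg and -Arg +ornithine, the strains likewise differed by less than the spread between experiments. Pro-5 averaged -0.19 in the gcn2Δ strain and -0.20 in the wild-type strain, a difference of 0.01 (95% interval -0.48 to 0.51, n = 4 experiments, limma adjusted p = 0.992, exact sign permutation p = 1). Pro-6 averaged 0.07 in the gcn2Δ strain and -0.09 in the wild-type strain, a difference of 0.16 (95% interval -0.30 to 0.62, limma adjusted p = 0.992, exact p = 0.5). Again 0 of 41 probes were called (0%), with 1 at an unadjusted limma p under 0.05, and 4 experiments allow no exact p under 0.125. The strain difference of Pro-5 minus Pro-6 was 0.04 at the late time points (exact p = 0.75) and -0.15 at 15 min (exact p = 0.625).

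Single experiments gave strain differences of both signs that a mean does not show. For Pro-5, gcn2Δ minus wild type was 1.01 after 60 min without Trp, Phe and Tyr, -0.67 after 60 min without Arg and -0.59 after 60 min without His. For Pro-6 the same experiments gave 0.72, -0.90 and -0.48. The proline probes differed between strains in the same direction at 10 of 13 time points. At 60 min without Trp they did not, with -1.78 for Pro-5 and 0.26 for Pro-6.

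**Figure D5:**
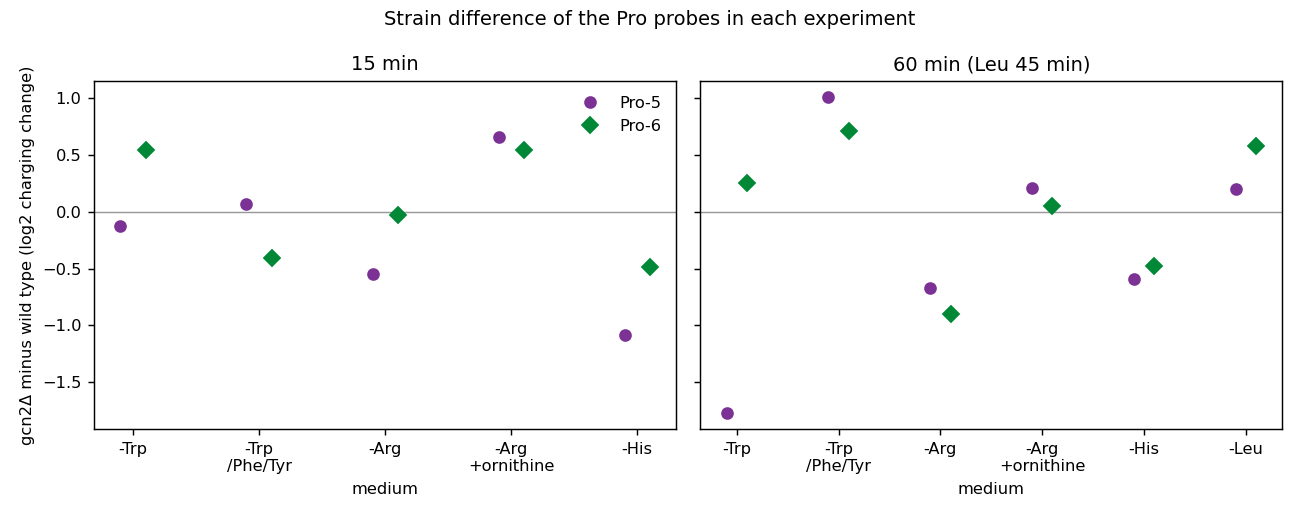
Difference in charging change (log2, gcn2Δ minus wild type) of Pro-5 and Pro-6 in each experiment, at 15 min (left) and at 60 min, or 45 min for Leu (right). Values of both signs occur, between -1.78 and 1.01 for Pro-5, and the probes lie far apart at 60 min without Trp.

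The tRNAs of glutamate and of amino acids made from it (8 Glu, Gln, Pro and Arg probes) had 0 calls upward and 9 downward in 190 tests over 24 cultures (4.74%), beside 1.63% over all probes. The Pro-5 values that the choice of probes used were left out of the list but not out of the share over all probes. All 9 were Arg probes in gcn2Δ cultures without Arg, 2 after 15 min and 4 after 60 min, and 3 after 60 min with ornithine, and in these cultures neither proline probe was called. The Ala, Cys, Gly and Pro probes, 8 in all, had 0 calls upward and 1 downward in 190 tests (0.526%), under the share over all probes. That call was Cys-3 in the wild-type strain after 60 min without Trp, Phe and Tyr, in a culture where 2 of 41 probes (4.88%) were called.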

How the data were processed

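The authors deposited 1 linear ratio per probe and array for 71 arrays, 68 of charging and 3 of abundance. A charging ratio divides the charged fraction of a depleted culture by that of its reference array, with experiment, strain and dyes matched. Array medians lay between 0.995 and 1.01, so the deposited ratios had been scaled per array. A change shared by most tRNAs is therefore not seen. The scanner and the background correction are not given in the sources used here, nor is the software. Signal over background was not analysed here, and the tables were complete.

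Ratios were taken to log2 with no pseudocount and centred on the array median, and dye-swapped arrays were averaged. The 4 Trp arrays with total tRNA in Cy5 were turned. Differences were tested in R 4.3.3 with limma 3.58.1 (lmFit, eBayes), with Benjamini-Hochberg adjustment over 41 probes and a threshold of 0.05. Trp and Trp/Phe/Tyr cultures were compared with His and both Arg media of the same time, Arg media with His, Trp and Trp/Phe/Tyr, His with these 4 media, and Leu with the 60-min cultures. The Leu cultures and their comparison cultures had references taken at different times. Both strains served as comparison cultures. A single tested culture was taken to vary as they do, and cultures of 1 experiment and strain share a reference, so p-values measure only the spread between these samples. Strain differences were paired within experiments, with exact two-sided sign permutation tests. Trp at 60 min and His at 15 min were left out of them, because those Pro-5 values had helped choose the probes.

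The probes and the lists of related probes were chosen with earlier results of these data known. Probes named besides Pro-5 and Pro-6 are the 3 most and the 2 least correlated with each, and Trp-3 where the direction of the Trp arrays is given. Met-6 and Cys-3 and the Arg probes are mentioned as list or pair members. Alternatives were the centring, single dye orientations, turning of arrays, other comparison cultures, left-out cultures and experiments, and the variance model. Leaving cultures or experiments out of the spreads, dye-pair counts and isoacceptor pairs was decided after seeing the data.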

Additional observations from a re-analysis of the deposited data

Results flagged for a closer look

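Each strain and time was examined for a culture that lies apart from the other media, over the 5 media with 15- and 60-min cultures, for Pro-5, Pro-6 and their difference. Pro-5 and the difference were not examined where the group holds a Pro-5 value that the choice of probes used, which leaves 8 checks. Of these, 1 found a culture whose gap to the next one exceeded Dixon's critical share of the range, which is 0.71 for 5 values and is passed by chance in about 1 group in 20. The 5 values of a group come from different media and are not replicates of 1 condition.

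Pro-6 in the wild-type strain after 15 min without His, at 0.43, stood apart from the other wild-type cultures at 15 min, between -0.14 and -0.04, with a gap of 0.814 of the range. Pro-5 of the same culture, at 1.27, was used to choose the probes, so this flag cannot be taken as separate from that choice.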

How the results depend on the processing

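Among the 46 tests of proline probes in single cultures, the count of 0 calls became 2 with total tRNA in Cy5 alone (Pro-6 in the gcn2Δ strain after 60 min without Arg and without Arg with ornithine, smallest limma adjusted p = 0.0104), 2 with comparison cultures of the same strain and 1 with a trend in the variance model (limma adjusted p = 0.0491), the last 3 all in the wild-type strain after 60 min without Trp, Phe and Tyr. In these settings the share of all probes called was not counted, so the calls cannot be read as particular to proline. With Cy5 alone, cultures without such an array also dropped out of the tests and the comparison. Leaving out each of 20 comparison cultures gave 0 to 0 calls. With the Trp Cy5 arrays as deposited, Pro-5 in the gcn2Δ strain after 60 min was 0.29. The strain differences, all near 0, changed sign in several settings, and none was called in 44 alternatives (limma adjusted p between 0.689 and 0.998). These 44 include the fits with all experiments, which hold the Pro-5 values used to choose the probes. Those fits have no weight as tests of Pro-5, and both ends of the range came from other fits. With all experiments included, the late difference was -0.27 for Pro-5, 0.040 for Pro-6 and -0.31 for Pro-5 minus Pro-6, and the early one for Pro-5 was -0.20. With Cy3 alone the late values were -0.0020, 0.0068 and -0.0088, and with centring on the mean the late Pro-6 value was 0.10. Leaving out 1 experiment in turn gave -0.21 to 0.21, -0.18 to 0.22 and -0.028 to 0.14 for late Pro-5, Pro-6 and their difference, and -0.20 to 0.20, 0.03 to 0.35 and -0.36 to 0.026 for the early ones. The fit without the replicate block, that is without pairing strains within experiments, kept the differences (0.033 and -0.0041 late, 0.01 and 0.16 early) with limma adjusted p of 0.988 late and 0.998 early. The number of arrays and of cultures limits the precision.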
